A study of Homo sapiens with 13 samples.

Results

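The enzymes described here write, erase or act alongside DNA methylation and Polycomb marks on chromatin. They are the DNA methyltransferases DNMT1, DNMT3A and DNMT3B, the dioxygenases TET1, TET2 and TET3, and the core subunits EZH1, EZH2, SUZ12 and EED of Polycomb repressive complex 2 (PRC2). Each gene was represented by the Affymetrix HG-U133 Plus 2.0 probe set that the platform annotation assigned to its symbol alone and that had the highest mean over 13 arrays. These 10 genes were among 18568 with such a probe set, and all 10 were among the 12560 tested between lineages, for which a probe set had to exceed the array median in 3 or more lines. The study profiled untreated acute lymphoblastic leukemia (ALL) cell lines, established cultures of leukemic lymphoid precursors, in work on the response to the antifolate methotrexate. The BCP-ALL group held the 6 B-cell precursor lines 697, Nalm6, Nalm16, Nalm30, REH and RS4,11 (RS4;11 in the study's methods). The T-ALL group held the 7 lines Jurkat, CCRF-CEM, Molt4, ALL-SIL, HPB-ALL, TALL-1 and P12-ICHIKAWA. Each line gave 1 array, so the lines were the replicates, the p-values measure the spread between lines, the spread within a line was not measured, and the number of arrays limits the precision.

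DNMT1 copies methylation onto the new DNA strand at replication, DNMT3A and DNMT3B set it on unmethylated sites, and the TET enzymes oxidise methylated cytosine as a step towards its removal. PRC2 methylates histone H3 through its catalytic subunit EZH2 or EZH1, while SUZ12 and EED hold the complex together and are needed for its activity. These genes are known sites of mutation in leukemia: TET2 and DNMT3A in myeloid neoplasms and in T-cell leukemia, and EZH2, SUZ12 and EED in T-ALL.

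Levels are log2 of the signal plus 16, so that the lowest possible level is 4, and a level within 1 log2 unit of it is called near the floor. A fold taken from such levels understates the change of a gene near the floor. Lineage was borne out by marker genes: 7 of 8 measured B-lineage markers were higher in every BCP-ALL line than in every T-ALL line, and 7 of 8 measured T-lineage markers the reverse. Among 7 measured myeloid markers, MPO was highest in REH (12.11), LYZ in Nalm6 (11.20), CEBPA in Nalm30 (8.02) and CSF1R in RS4,11 (6.09), while ELANE and AZU1 were near the floor in all 13 lines. Some arrays stood close together or apart. P12-ICHIKAWA and TALL-1 correlated at r = 0.993 over all probe sets and may not count as independent lines, so results are also given with their mean as 1 line. Nalm16 and Nalm30 correlated at r = 0.959, had the lowest array medians (5.05 and 5.09, against 5.15 to 5.37 on the other arrays), and results are also given without them.

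Promoter windows are shown for TET1, the gene with the largest lineage difference among the 10, and for the PRC2 subunits EZH2, SUZ12 and EED. Levels of these subunits were lowest in Nalm16 and Nalm30, as were those of DNMT1 and EZH1, whose windows are counted but not shown. The windows come from RefSeq on GRCh38.p14 and run 5′ to 3′ from 250 bases before to 50 bases after the outermost start in the promoter table. For DNMT3B and TET3, whose windows are counted but not shown, that start lies inside the RefSeq gene span, downstream of its first base. Capitals mark the letters CCAAT, which read ATTGG on the other strand, and the E2F-type letters TTTGGCGC, TTTCGCGC and TTTCCCGC on either strand, and no match of one kind overlapped one of the other.
TET1, chr10:68560087-68560386, plus strand: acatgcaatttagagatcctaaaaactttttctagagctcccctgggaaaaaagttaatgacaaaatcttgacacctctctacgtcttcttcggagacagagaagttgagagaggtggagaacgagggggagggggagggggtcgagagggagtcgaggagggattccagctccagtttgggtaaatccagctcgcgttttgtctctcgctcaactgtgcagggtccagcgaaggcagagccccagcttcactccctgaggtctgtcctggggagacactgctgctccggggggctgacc
EZH2, chr7:148884242-148884541, minus strand: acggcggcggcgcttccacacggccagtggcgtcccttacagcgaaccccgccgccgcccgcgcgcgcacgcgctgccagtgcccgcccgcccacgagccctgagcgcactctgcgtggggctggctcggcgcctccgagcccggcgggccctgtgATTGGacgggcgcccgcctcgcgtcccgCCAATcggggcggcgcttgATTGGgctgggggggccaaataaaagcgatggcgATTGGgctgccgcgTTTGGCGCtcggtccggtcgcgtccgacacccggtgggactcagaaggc
SUZ12, chr17:31936757-31937056, plus strand: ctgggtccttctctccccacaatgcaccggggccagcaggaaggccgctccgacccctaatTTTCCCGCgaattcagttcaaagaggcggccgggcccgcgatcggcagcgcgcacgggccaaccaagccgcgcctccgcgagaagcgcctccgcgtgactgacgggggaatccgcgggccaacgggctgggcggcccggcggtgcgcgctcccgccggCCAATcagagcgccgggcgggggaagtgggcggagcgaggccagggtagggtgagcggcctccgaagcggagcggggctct
EED, chr11:86244503-86244802, plus strand: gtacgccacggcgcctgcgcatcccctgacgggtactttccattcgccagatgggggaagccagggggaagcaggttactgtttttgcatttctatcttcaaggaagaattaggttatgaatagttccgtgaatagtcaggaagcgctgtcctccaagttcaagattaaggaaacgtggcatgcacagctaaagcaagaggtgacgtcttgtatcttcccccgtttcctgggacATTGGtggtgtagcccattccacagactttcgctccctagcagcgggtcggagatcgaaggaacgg
The EZH2 window held 4 CCAAT matches and 1 E2F-type match, and the SUZ12 window held 1 of each. The EED window held 1 CCAAT match and no E2F-type match, and the TET1 window held neither. Among all 10 genes, 4 windows had CCAAT (DNMT3B, EZH2, SUZ12 and EED), against 34.6% of the 35116 windows of all genes. An E2F-type match was present in 3 of the 10 (DNMT1, EZH2 and SUZ12), against 2.74% of all windows. The windows of the 10 are 1 per gene, at the outermost start, while all windows include several for some genes. Median GC content was 67.0% in the windows of the 10 and 58.7% in all windows, and the matches were not adjusted for it. TTTGGCGC, found in the EZH2 window, was in 0.652% of all windows, and TTTCCCGC, found in the SUZ12 window, in 1.63%. The windows of the 10 genes had a median of 24 CpG sites, against 14 over all windows, with 46 in EZH2, 40 in SUZ12, 16 in EED and 10 in TET1. A match describes letters in the window and not a bound site.

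Between the lineages, TET1 was the only one of the 10 genes to pass the test, with a level 4.02-fold higher in T-ALL. Over all genes tested, 958 (7.63%) passed at an adjusted p of 0.05 from limma, 497 higher in T-ALL (3.96%) and 461 lower (3.67%). At an unadjusted p of 0.05, 4 of the 10 passed (TET1, TET2, EZH1 and SUZ12), against 25.3% of all genes. Without Nalm16 and Nalm30, 668 of the 12560 genes passed in limma and 0 of the 10 did. In that fit TET1 and TET3 were at an unadjusted limma p under 0.05, and the share of all genes at that p was not counted. The difference over all lines was positive, that is higher in T-ALL, in 9 of the 10, and TET3 was the exception. The share of all genes with a positive difference was not counted. Without Nalm16 and Nalm30, EZH2 (-0.01) and EED (-0.14) were negative too, and DNMT1 was at 0.013. With all lines, the median difference over the 10 was 0.41 log2 units, against 0.03 over all genes. The lineages overlapped in all 10, while they did not overlap in 3.69% of all genes. In whole cultures, fewer cells with a transcript and less of it per cell cannot be told apart.

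**Figure D1:**
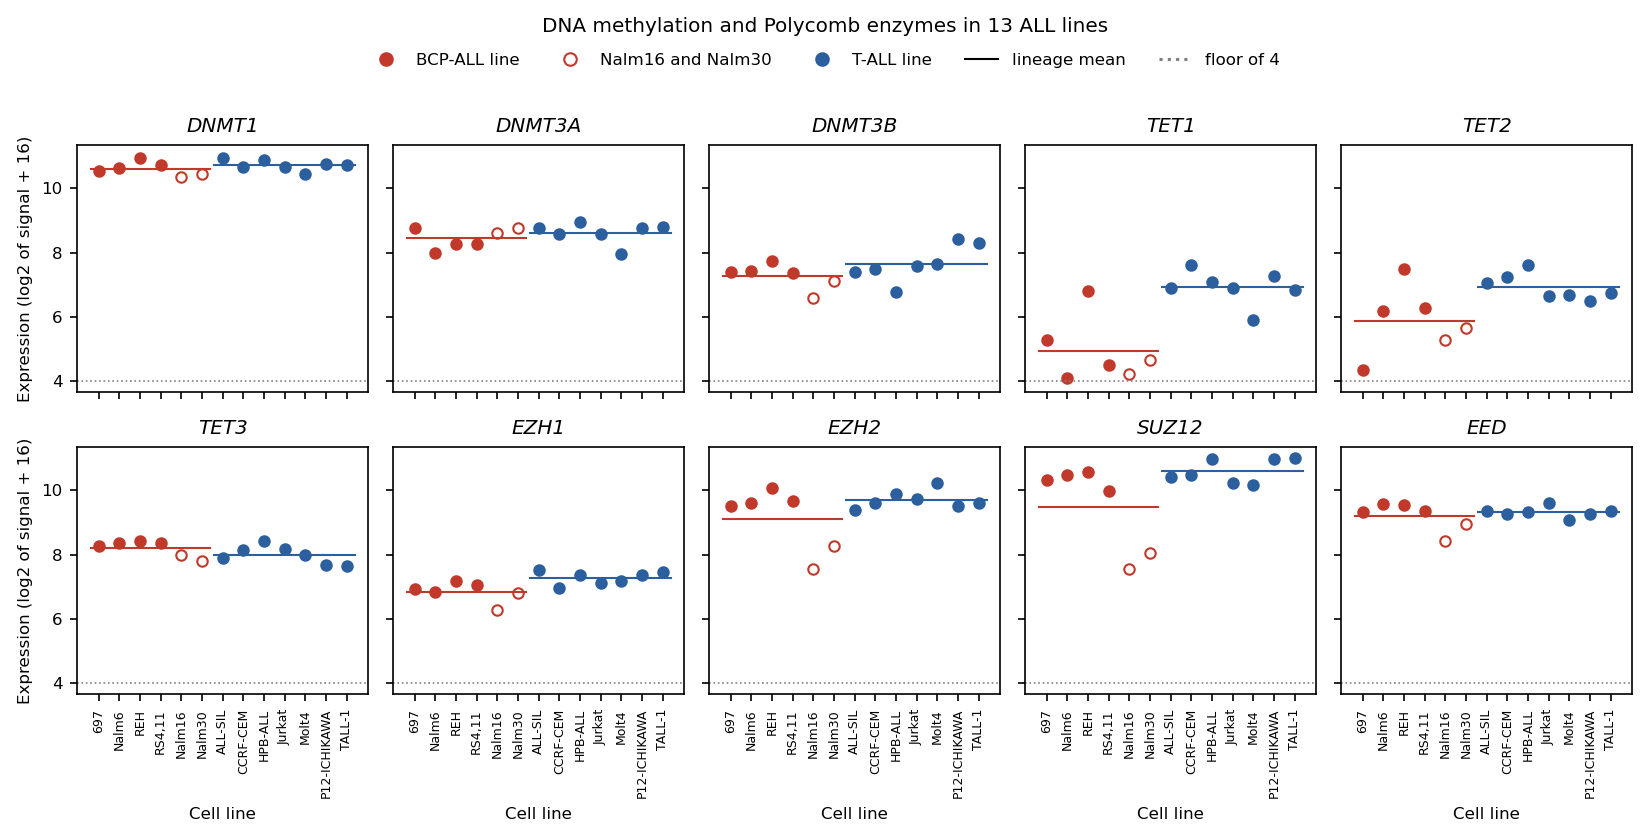
Level of each enzyme gene (vertical axis, log2 of signal plus 16) in the 13 lines (horizontal axis), with BCP-ALL in red, Nalm16 and Nalm30 as open red circles and T-ALL in blue. Horizontal lines are lineage means and the dotted line is the lowest possible level of 4. TET1 was near that floor in 4 BCP-ALL lines, and SUZ12 and EZH2 stood lowest in Nalm16 and Nalm30.

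No DNA methyltransferase passed between lineages. DNMT1 (probe set 201697_s_at, chromosome 19, 10133346 to 10194953 on GRCh38.p14) ran from 10.36 through a median of 10.59 to 10.96 in BCP-ALL and from 10.46 through 10.73 to 10.95 in T-ALL. The line levels interleaved, with REH highest and Nalm16 and Nalm30 lowest, over a range of 0.60 log2 units. The difference was 0.12 log2 units (95% interval -0.18 to 0.41, limma adjusted p = 0.624), and 0.013 without Nalm16 and Nalm30.

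DNMT3A (222640_at, chromosome 2, 25227874 to 25342590) ran from 7.99 through 8.45 to 8.78 in BCP-ALL and from 7.95 through 8.76 to 8.94 in T-ALL. Molt4 stood lowest of all lines at 7.95, with Nalm6 next at 7.99, and the other 6 T-ALL lines lay between 8.57 and 8.94. The difference was 0.18 log2 units (95% interval -0.23 to 0.58, limma adjusted p = 0.586), and 0.29 without Nalm16 and Nalm30. Other probe sets of DNMT3A gave differences of 0.08 (218457_s_at) and 0.07 (244428_at).

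DNMT3B (220668_s_at, chromosome 20, 32762385 to 32809356) ran from 6.58 through 7.39 to 7.73 in BCP-ALL and from 6.78 through 7.60 to 8.42 in T-ALL. The highest levels were in the closely correlated lines P12-ICHIKAWA (8.42) and TALL-1 (8.30), and the lowest in Nalm16 (6.58) and HPB-ALL (6.78). The difference was 0.39 log2 units (95% interval -0.19 to 0.96, limma adjusted p = 0.370), and 0.27 with P12-ICHIKAWA and TALL-1 as 1 line. Without Nalm16 and Nalm30 it was 0.17, and without Nalm16 alone 0.25.

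The TET enzymes held the largest lineage difference. TET1, a dioxygenase with a CXXC domain that binds CpG-rich DNA (228906_at, chromosome 10, 68560337 to 68694487), stood at 4.08 in Nalm6, 4.23 in Nalm16, 4.50 in RS4,11, 4.66 in Nalm30, 5.29 in 697 and 6.80 in REH. In T-ALL it stood at 5.91 in Molt4, 6.84 in TALL-1, 6.89 in Jurkat, 6.91 in ALL-SIL, 7.08 in HPB-ALL, 7.27 in P12-ICHIKAWA and 7.63 in CCRF-CEM. All T-ALL lines except Molt4 were above every BCP-ALL line, and all BCP-ALL lines except REH were below every T-ALL line. Nalm6, Nalm16, RS4,11 and Nalm30 were near the floor.

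The TET1 mean was 4.93 ± 1.01 (SD, n = 6) in BCP-ALL and 6.93 ± 0.53 (SD, n = 7) in T-ALL. The difference was 2.01 log2 units (SE 0.407, 95% interval 1.13 to 2.88), with a limma adjusted p of 0.0084 and a two-sided exact permutation p of 0.0029. TET1 ranked 365 of 12560 by p. The gene entered the test through REH and the 7 T-ALL lines, the lines where it was above the array median, and a gene that passes the filter mainly through one group has to differ between the groups to some degree.

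The TET1 difference kept its direction when any 1 line was left out, between 1.84 log2 units (without Nalm6) and 2.38 (without REH), and passed each time. With P12-ICHIKAWA and TALL-1 as 1 line it was 1.99 (limma adjusted p = 0.020). Without Nalm16 and Nalm30 it was 1.77 (95% interval 0.74 to 2.79) and missed the threshold at a limma adjusted p of 0.052. Its size also depends on the floor: with 64 in place of 16 added to the signal, the difference was 1.07 (limma adjusted p = 0.013).

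TET2, which lacks the CXXC domain (227624_at, chromosome 4, 105145875 to 105279803), stood at 4.34 in 697, 5.27 in Nalm16, 5.66 in Nalm30, 6.19 in Nalm6, 6.26 in RS4,11 and 7.49 in REH. In T-ALL it ran from 6.50 in P12-ICHIKAWA through a median of 6.76 to 7.62 in HPB-ALL. As with TET1, REH was the BCP-ALL line within the T-ALL range, and the other 5 BCP-ALL lines lay below every T-ALL line. The difference was 1.06 log2 units (SE 0.401, 95% interval 0.20 to 1.93), with a limma adjusted p of 0.124 and an unadjusted exact permutation p of 0.028. Without REH it was 1.39 and passed (limma adjusted p = 0.021), and without Nalm16 and Nalm30 it was 0.86 (adjusted p = 0.362). The other TET2 probe sets, 1569385_s_at and 235461_at, had means of 4.62 and 4.27 over the 13 lines, near the floor.

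TET3 (235542_at, chromosome 2, 73983631 to 74135498) had the opposite sign. It ran from 7.81 through 8.30 to 8.42 in BCP-ALL and from 7.64 through 8.0 to 8.43 in T-ALL. P12-ICHIKAWA and TALL-1 were lowest and HPB-ALL and REH highest, so both lineages spanned most of the range. The difference was -0.21 log2 units (95% interval -0.57 to 0.15, limma adjusted p = 0.448), and -0.36 without Nalm16 and Nalm30 (adjusted p = 0.266).

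**Figure D2:**
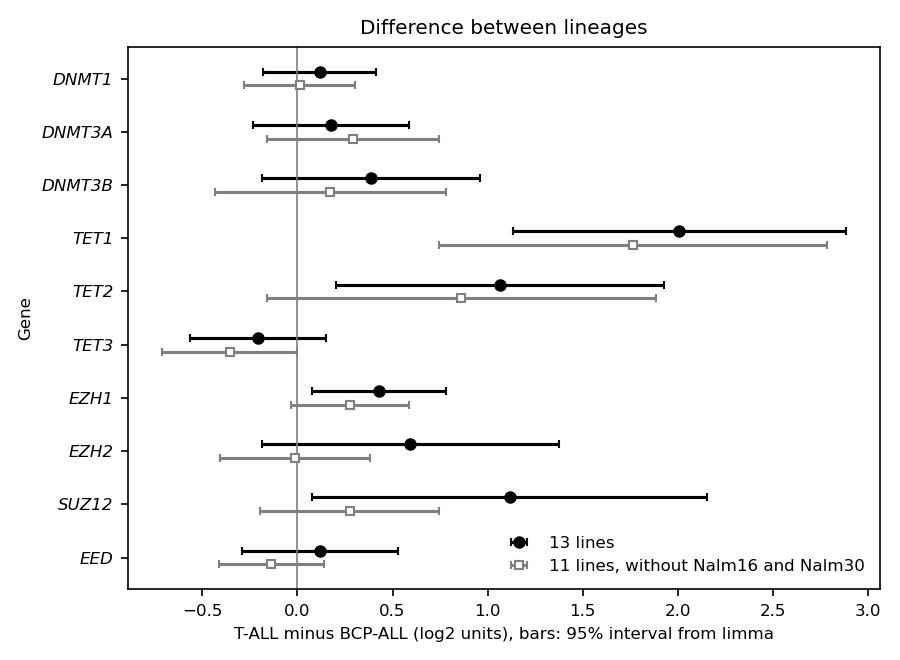
T-ALL minus BCP-ALL difference of each enzyme gene (horizontal axis, log2 units) with 95% intervals from limma, for all 13 lines (filled circles) and for the 11 lines besides Nalm16 and Nalm30 (open squares). TET1 lies at 2.01 and 1.77, while SUZ12 moves from 1.12 to 0.27 and EZH2 from 0.59 to -0.01 when these lines are left out.

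Among the PRC2 subunits no lineage difference passed, and the levels of SUZ12 and EZH2 were set apart in the same lines, Nalm16 and Nalm30. EZH1, the catalytic subunit that prevails in non-dividing cells (32259_at, chromosome 17, 42700275 to 42745040), ran from 6.27 through 6.89 to 7.18 in BCP-ALL and from 6.95 through 7.35 to 7.53 in T-ALL. Of the T-ALL lines, 4 were above every BCP-ALL line, and 4 BCP-ALL lines were below every T-ALL line. The difference was 0.43 log2 units (95% interval 0.08 to 0.78, limma adjusted p = 0.128, unadjusted exact permutation p = 0.0076). Without Nalm16 and Nalm30 it was 0.28 (95% interval -0.03 to 0.59, limma adjusted p = 0.331). A second EZH1 probe set, 203249_at, gave 0.51 and another, 239197_s_at, gave -0.03.

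EZH2, the catalytic subunit that prevails in dividing cells (203358_s_at, chromosome 7, 148807383 to 148884291), stood at 7.54 in Nalm16 and 8.27 in Nalm30, and at 9.51 in 697, 9.61 in Nalm6, 9.68 in RS4,11 and 10.08 in REH. In T-ALL it ran from 9.39 in ALL-SIL through a median of 9.61 to 10.23 in Molt4. Apart from Nalm16 and Nalm30, the BCP-ALL lines lay within the T-ALL range. The lineage difference was 0.59 log2 units with all lines (95% interval -0.19 to 1.37, limma adjusted p = 0.317) and -0.01 without Nalm16 and Nalm30 (95% interval -0.40 to 0.38).

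SUZ12, a zinc finger subunit of the PRC2 core (212287_at, chromosome 17, 31937007 to 32001038), stood at 7.55 in Nalm16 and 8.06 in Nalm30, and at 9.96 in RS4,11, 10.30 in 697, 10.49 in Nalm6 and 10.57 in REH. In T-ALL it ran from 10.15 in Molt4 through a median of 10.47 to 11.01 in TALL-1. TALL-1, P12-ICHIKAWA and HPB-ALL were above every BCP-ALL line. The difference was 1.12 log2 units (SE 0.482, 95% interval 0.08 to 2.15), with a limma adjusted p of 0.169 and an unadjusted exact permutation p of 0.0315. Without Nalm16 and Nalm30 it was 0.27 (95% interval -0.20 to 0.75, limma adjusted p = 0.557).

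SUZ12 has a pseudogene, SUZ12P1. Probe positions were not checked against it, so how much of the SUZ12 signal the pseudogene carries, if any, is uncertain. A probe set assigned to SUZ12P1 alone (236386_at) had a mean level of 5.03 over the 13 lines. The other SUZ12 probe sets, 1566191_at and 1566190_at, had mean levels of 5.54 and 4.95 and gave lineage differences of 0.31 and -0.03.

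EED, which reads the histone mark that PRC2 makes (209572_s_at, chromosome 11, 86244753 to 86287615), ran from 8.41 through 9.35 to 9.57 in BCP-ALL and from 9.07 through 9.31 to 9.60 in T-ALL. Nalm16 and Nalm30 (8.96) were the lowest lines, and the other 11 lay between 9.07 and 9.60. Nalm30 was close to Molt4 (9.07), and with array medians subtracted it was no longer below it. The difference was 0.12 log2 units (95% interval -0.29 to 0.53, limma adjusted p = 0.732), and -0.14 without Nalm16 and Nalm30.

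The low PRC2 subunit levels in Nalm16 and Nalm30 are a description with no test, since these lines were singled out after their values were seen. Against the mean of the other 4 BCP-ALL lines, the mean of the pair was lower by 2.53 log2 units for SUZ12 (5.76-fold) and by 1.81 for EZH2 (3.51-fold), and by 0.77 for EED. Over all genes tested, 2.96% had a lower difference than SUZ12 and 8.88% a lower one than EZH2. The second SUZ12 probe set, 1566191_at, was lower by 1.24 in the pair, and the last, 1566190_at, higher by 0.29. DNMT3B was lower by 0.64 and DNMT3A higher by 0.35.

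Both lines lay below every other line in 5 of the 10 genes (DNMT1, EZH1, EZH2, SUZ12 and EED), against 20.5% of all genes. With the median of each array subtracted, both lay below every other line in EZH2 and SUZ12, 2 of the 10, against 16.6% of all genes. Without that subtraction, both lay below every other BCP-ALL line in 7 of the 10, against 28.0%. A pair mean at least 1 log2 unit lower was seen in 2 of the 10, against 21.5% of all genes. Of 15 proliferation genes, both lines lay below every other line in 8, and in 5 with array medians subtracted. The pair mean was lower than that of the other BCP-ALL lines in 9 and higher in 6 (CCNB1, AURKA, AURKB, MCM2, TYMS and BIRC5). CDK1, a kinase that drives mitosis, was lower by 2.98 and the topoisomerase TOP2A by 1.60, whereas the replication helicase subunit MCM2 was higher by 0.48. The median over the 15 was -0.29, against -0.092 over all genes. The part of proliferation, or of the lower array medians, in the EZH2 and SUZ12 levels was not tested.

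**Figure D3:**
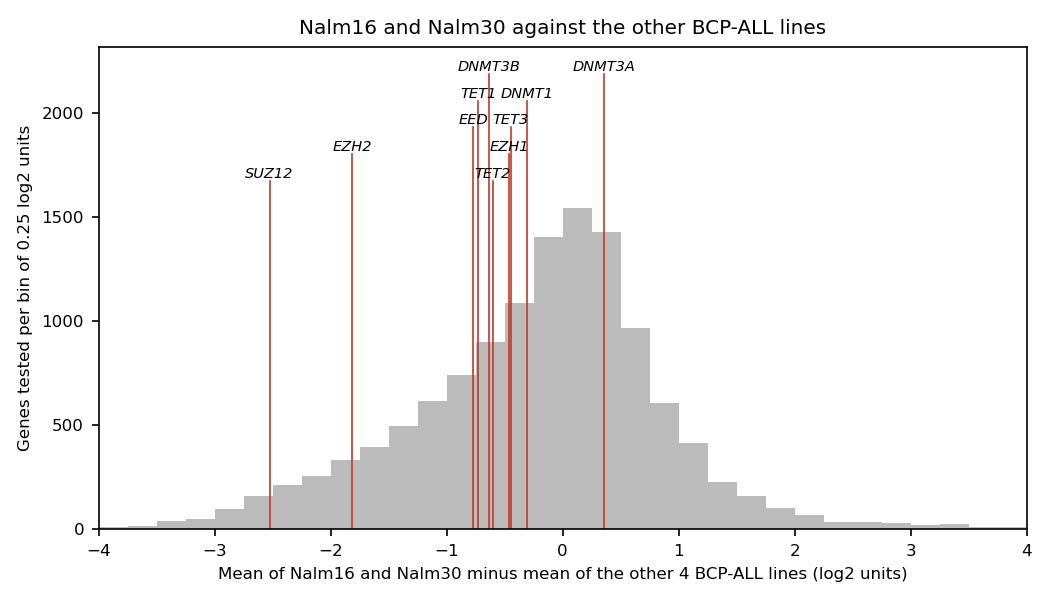
Mean of Nalm16 and Nalm30 minus mean of the other 4 BCP-ALL lines (horizontal axis, log2 units). Bars count the 12560 genes tested in bins of 0.25 log2 units, 71 genes outside the axis are not drawn, and red lines mark the enzyme genes, with SUZ12 at -2.53 and EZH2 at -1.81.

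Correlations among EZH2, SUZ12 and EED across the 13 lines rested on Nalm16 and Nalm30. Pearson's r was 0.883 for EZH2 and SUZ12, 0.803 for EZH2 and EED and 0.803 for SUZ12 and EED. Over the 11 lines without Nalm16 and Nalm30 the same pairs gave -0.15, -0.17 and -0.05. EZH1 and SUZ12 gave 0.808 over 13 lines and 0.522 over 11, whereas EZH1 gave 0.718 and -0.061 with EZH2 and 0.642 and -0.22 with EED. Of all 45 pairs of the 10 genes, TET1 and TET2 gave 0.695 over 13 lines and 0.591 over 11, and DNMT3B and TET3 gave -0.46 and -0.78. These coefficients describe lines that also share lineage and array scaling.

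**Figure D4:**
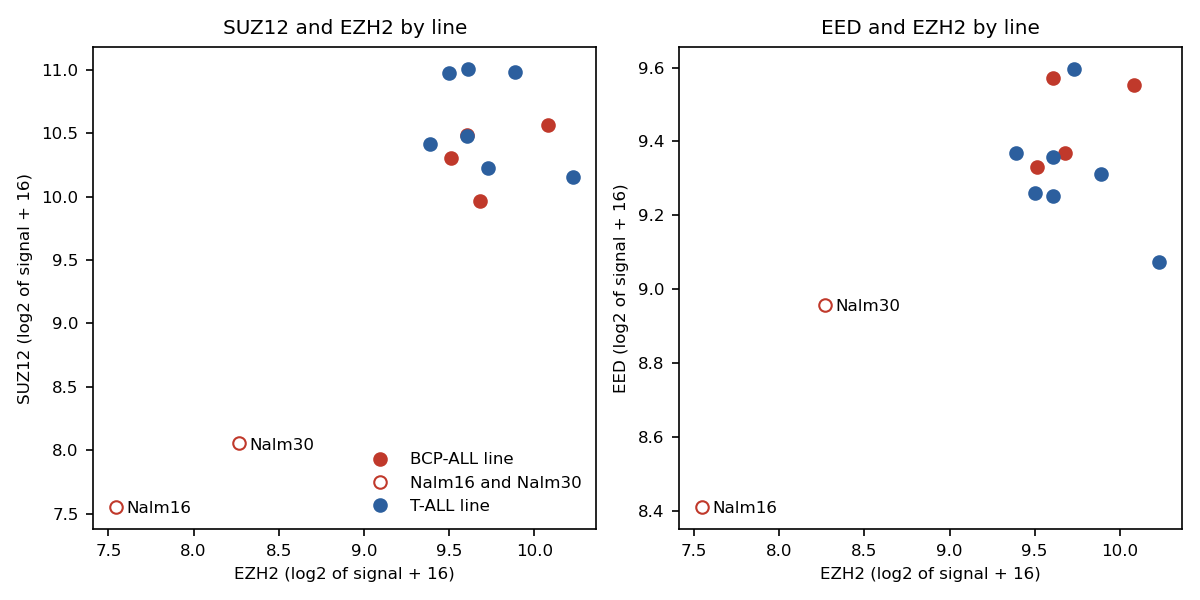
Level of SUZ12 (left) and EED (right) on the vertical axis against EZH2 on the horizontal axis, all as log2 of signal plus 16, with 1 point per line. Nalm16 (EZH2 7.54, SUZ12 7.55) and Nalm30 (8.27, 8.06) lie apart from the other 11 lines.

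P12-ICHIKAWA and TALL-1 gave a scale for differences between lines that resemble each other. Their levels of the 10 genes differed by up to 0.44 log2 units (TET1), while the median size of their difference was 0.113 over all genes and its 95th percentile 0.413. Neighbouring lines in the orders above that lie closer than this are not separated by the present arrays, as for Jurkat and ALL-SIL in TET1.

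The genes whose levels ran most like each enzyme gene over the 13 lines were taken as the 3 with the highest Pearson's r among the genes tested. For TET1 these were ENPP4 (r = 0.951), FHIP2A (0.932) and PWAR6 (0.918), and r stayed between 0.885 and 0.932 over 11 lines. For TET2 they were ZBTB43 (0.943), CUTALP (0.934) and CCDC125 (0.932), and for TET3 ANKRD33B (0.927), FAM238B (0.905) and AMMECR1L (0.896). For SUZ12 they were UBA6 (0.991), USP33 (0.988) and VPS13A (0.988), which fell to 0.905, 0.889 and 0.868 without Nalm16 and Nalm30. For EZH2 they were LIMA1 (0.981), MITD1 (0.976) and C11orf58 (0.974), which fell to 0.846, 0.743 and 0.731 without Nalm16 and Nalm30. For EED they were C1orf52 (0.941), GAPVD1 (0.941) and ANKRD13C (0.940), which fell to 0.670, 0.701 and 0.706 without Nalm16 and Nalm30. For EZH1 they were PIK3CB (0.961), ZKSCAN1 (0.946) and NHLRC3 (0.935). For DNMT3A they were SH3PXD2A (0.862), the PRC2 accessory subunit JARID2 (0.858) and H1-7 (0.844), for DNMT3B RPS27 (0.926), WDR48 (0.916) and ZNF200 (0.909), and for DNMT1 ANKRD44 (0.936), ZNF564 (0.910) and LOC389765 (0.906).

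Genes that work with or against the 10 enzymes, and 15 proliferation genes, were taken from 7 lists. Of their 87 tested genes, 2 passed between lineages, 1 in each direction, against 7.63% of all genes. Both were in the list of TET cofactors and partners. The counts per list at an unadjusted limma p of 0.05 stand beside 25.3% of all genes. IDH1, the cytosolic isocitrate dehydrogenase that makes the 2-oxoglutarate TET enzymes use, fell from a mean of 9.14 ± 0.51 (SD, n = 6) in BCP-ALL to 7.94 ± 0.49 (SD, n = 7) in T-ALL, 2.30-fold (limma adjusted p = 0.0156). Its levels ran from 8.34 to 9.78 in BCP-ALL and from 7.26 to 8.79 in T-ALL, so the lineages overlapped. Nalm30 was highest, and without Nalm16 and Nalm30 the difference was -0.94 and missed the threshold (adjusted p = 0.075).

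CXXC4, which binds CpG-rich DNA and TET2, was higher in T-ALL by 0.64 log2 units (limma adjusted p = 0.0366), from 5.01 ± 0.11 (SD, n = 6) to 5.65 ± 0.36 (SD, n = 7). Levels ran from 4.86 to 5.20 in BCP-ALL, near the floor or just above it, and from 5.01 to 6.06 in T-ALL. In 697, Nalm6, REH and RS4,11 CXXC4 was below the array median (5.22 to 5.37). It therefore entered the test at least partly through T-ALL lines, and as with TET1 such a gene has to differ to some degree. The call of CXXC4 was lost in 10 of 13 fits that left out 1 line (all except RS4,11, CCRF-CEM and Jurkat), with 0.57 log2 units as the smallest difference. It was lost too without Nalm16 and Nalm30 (0.64, adjusted p = 0.090), and with P12-ICHIKAWA and TALL-1 as 1 line (adjusted p = 0.072). The list had 8 tested genes, and IDH3A (0.88, adjusted p = 0.099), a mitochondrial isocitrate dehydrogenase subunit, and WT1 (1.73, adjusted p = 0.185), a zinc finger factor that recruits TET2, missed the threshold. The mean of Nalm16 and Nalm30 was lower than that of the other BCP-ALL lines by 1.07 for IDH3A and 3.45 for WT1. The median difference over the list was 0.16.

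Partners of DNA methylation had no call among 10 tested genes, 3 at an unadjusted limma p of 0.05, and a median of 0.21 log2 units. NSD2, a histone methyltransferase, gave 0.61 (limma adjusted p = 0.084), its relative NSD1 -0.56 (0.108), and USP7, a deubiquitinase that binds DNMT1, 0.63 (0.141). HELLS, the remodeler that opens chromatin to DNA methyltransferases, gave 1.0 (0.268) and was lower by 2.98 in Nalm16 and Nalm30 than in the other BCP-ALL lines. Methyl-CpG readers and repair enzymes had no call among 11, with 3 at an unadjusted p of 0.05 and a median of -0.24. NEIL2, a DNA glycosylase, gave -0.99 (adjusted p = 0.077), the endonuclease APEX1 -0.62 (0.124), the glycosylase MBD4 0.67 (0.173) and SMUG1 0.42 (0.220).

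PRC2 accessory subunits had no call among 10, with 2 at an unadjusted limma p of 0.05 and a median of 0.46 log2 units. PHF1 gave 0.64 (limma adjusted p = 0.150), JARID2 0.55 (0.176), MTF2 0.67 (0.223) and EPOP -1.01 (0.231), which became -0.52 without HPB-ALL. Nalm16 and Nalm30 were both below every other line in 5 of these 10 genes, in 5 of the 10 DNA methylation partners and in 5 of the 22 PRC1 subunits, against the 20.5% of all genes. The list of PRC1 subunits, the complex that ubiquitinates histone H2A, had no call among 22, with a median of 0.10 and 8 genes at an unadjusted p of 0.05. PCGF5 gave 1.60 (adjusted p = 0.060), CBX6 -0.60 (0.080), RYBP 0.85 (0.089) and PHC3 1.13 (0.110). For PCGF5, PHC3 and RYBP, the mean of Nalm16 and Nalm30 minus that of the other BCP-ALL lines was -2.47, -2.17 and -1.22. For CBX6 it was 0.23.

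Opponents of Polycomb, which remove its mark or methylate and remodel chromatin against it, had no call among 11, with 1 at an unadjusted limma p of 0.05 and a median of 0.12 log2 units. SMARCB1, a SWI/SNF subunit, gave -0.65 (limma adjusted p = 0.054). The demethylase KDM6A gave 1.08 (0.264), and the methyltransferases KMT2D and KMT2A -0.30 (0.284) and 0.56 (0.321). For KDM6A and KMT2A, the mean of Nalm16 and Nalm30 minus that of the other BCP-ALL lines was -3.12 and -1.54. For KMT2D it was 0.04, and for SMARCB1 0.65. Proliferation genes had no call among 15, with 4 at an unadjusted p of 0.05 and a median of 0.38, beside 0.41 for the 10 enzyme genes. RRM2 gave 0.49 (0.078), TOP2A 1.13 (0.094), BUB1 0.69 (0.115) and MCM6 0.39 (0.134). Genes of the lists with no single-gene probe set in the table, such as BMI1, RNF2 and BAP1, were not analysed here.

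**Figure D5:**
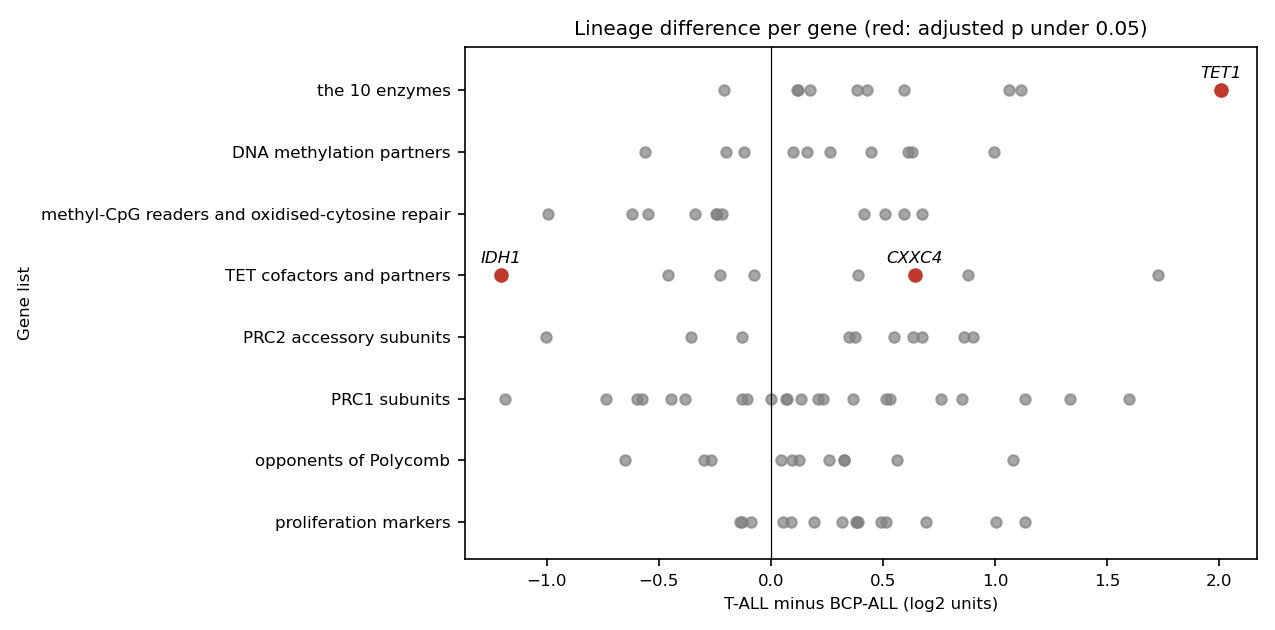
T-ALL minus BCP-ALL difference (horizontal axis, log2 units) of each tested gene, in rows by list, with the 10 enzymes at the top. Red points passed at a limma adjusted p of 0.05: TET1 (2.01), IDH1 (-1.20) and CXXC4 (0.64).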

How the data were processed

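RNA of 13 untreated lines was hybridised to Affymetrix HG-U133 Plus 2.0 arrays, 1 per line. Per the labels the cells grew for 30 h and RNA came from phenol-chloroform and a silica column, while the study's methods describe overnight culture and a spin-column kit. The values the authors deposited are log2 of the iterPLIER signal plus 16, made in Affymetrix Expression Console (named in the submitters' processing notes). Its version and how arrays were scaled are not given in the sources used here.

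Of 42450 probe sets, 38125 carried 1 gene symbol in the platform annotation, updated by Entrez ID, and those with several or none were left out. The lineage test used limma 3.58.1 in R 4.3.3 (lmFit and eBayes, two-sided, Benjamini-Hochberg over 12560 genes at 0.05) on all lines, with lineage as the only term. Single genes also got an exact permutation test over all 1716 assignments of lines, whose smallest possible p is 0.000583, unadjusted. The steps were tested on simulated data. Tables and plots were made in Python 3.11.15 (numpy 2.4.6, pandas 2.3.3, matplotlib 3.10.9). Locations and promoters are from RefSeq on GRCh38.p14.

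The 10 genes and 7 lists were chosen with earlier results of these data known. Named are the 10 genes, in each list up to 4 by smallest p plus any that passed, and the 3 genes most like each. The list genes given for Nalm16 and Nalm30, such as HELLS, CDK1, TOP2A, MCM2, PCGF5, WT1 and KDM6A, were picked after their values were seen. The alternatives were other normalization, filters, probe sets, offsets and variance models, and leaving lines out.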

Additional observations from a re-analysis of the deposited data

Results flagged for a closer look

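Within each lineage, 76 combinations of gene and lineage were examined for a single line far from the rest, and chance alone marks about 1 in 20 such groups. In 3 the gap to the nearest line, over the range of the group, was above the critical value of Dixon's test, which is 0.568 for 7 lines.

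DNMT3A in Molt4 was 7.95, against 8.57 in the next lowest T-ALL line. EPOP, a PRC2 accessory protein that binds elongin, was at 4.24 in HPB-ALL, near the floor, against 7.33 in the next lowest T-ALL line. The histone demethylase gene KDM6A was at 8.09 in CCRF-CEM, against 7.20 in the next highest T-ALL line. With 1 array per line, none of these levels has a repeat measurement.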

How the results depend on the processing

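No paired analysis was possible because each line has 1 array and the replicate numbers only follow the order of the samples. For the 10 genes, 243 values under alternatives kept direction and side of the threshold, 5 turned sign, 4 passed that had not (3 by the unadjusted exact test, and TET2 without REH) and 1 no longer passed. The sign turned for EZH1 with probe set 239197_s_at (-0.033), for SUZ12 with 1566190_at (-0.032), without Nalm16 and Nalm30 for EZH2 (-0.011) and EED (-0.14), without Nalm16 alone for EED (-0.038, with leave-one-out values up to 0.19), and for SMUG1 with the probe set of largest variance (-0.15). TET1 lost its call without Nalm16 and Nalm30 (1.77), which leaves 0 of the 10 called.

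Leaving out 1 line gave 609 (TALL-1) to 1223 (REH) calls over all genes, 629 without P12-ICHIKAWA, and 610 with P12-ICHIKAWA and TALL-1 averaged. It gave 1 to 2 calls among the 10 genes and the TET cofactors, 0 to 1 in DNA methylation partners, opponents of Polycomb and proliferation genes, and 0 to 2 in PRC1 subunits. TET cofactors had 0 calls without Nalm16 and Nalm30, and 1 under quantile normalization, subtracted array medians, a raised offset or averaging of P12-ICHIKAWA and TALL-1. Otherwise a list without calls gained 1 at most: DNA methylation partners with the mean of all probe sets, readers and repair under quantile normalization or without Nalm16 and Nalm30, PRC1 subunits under quantile normalization, subtracted medians or a raised offset, opponents under quantile normalization or a raised offset, and proliferation genes with a raised offset or a trended robust variance. Apart from fewer lines or genes entering, the cause was not tested. Signal near the floor limits TET1 in BCP-ALL, and CXXC4 there is near the floor or just above it.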
